A study of Rattus norvegicus with 12 samples.

Results

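Tert-butyl alcohol (TBA), an industrial solvent and fuel-oxygenate metabolite, was compared with its vehicle in the renal cortex of rats killed under isoflurane, an inhaled halogenated ether anesthetic. The 6 samples of this comparison were chosen by their labels, 3 vehicle rats and 3 TBA rats, out of 12 in the series. All were male Sprague-Dawley rats of the Crl:CD(SD) stock, 5 weeks old when bought and kept on a basal diet with a 12 h light and 12 h dark cycle. The vehicle rats received water, and the TBA rats received 1000 mg/kg/day for 4 weeks. All 6 were bled under isoflurane 24 h after the last dose, so the anesthetic was common to both groups. The other 6 rats received the same 2 treatments and were bled under a 4:1 mixture of CO2 and O2. The design text calls the 3 rats of each group biological replicates. No genetic alteration was involved.

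RNA from each cortex was labelled with 1 dye and hybridised to an Agilent rat array, 1 array per rat. Every level given here is log2 of the background-subtracted, scanner-processed signal minus the 75th percentile of that array, and a difference is the mean of the TBA rats minus that of the vehicle rats. Of 61657 non-control probes, 61.6 to 71.0% were well above background on the 6 isoflurane arrays, and arrays of 1 group correlated at 0.988 to 0.992. The 3 TBA arrays shared a slide that held no other array of the series, and the 3 vehicle arrays lay on another, so slide and treatment cannot be told apart. The slide of the TBA arrays had a median local background of 42.0 to 49.0 intensity units, against 25.0 to 27.0 on the vehicle arrays. In bulk cortex, fewer cells of a type and less RNA per cell cannot be told apart. Defining genes of the cortex were measured, with 13 of 14 markers of the convoluted proximal tubule and 10 of 10 podocyte markers among the tested features. No marker of any cell type passed the test.

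Proximal tubule cells of the renal cortex run mainly on fatty acid oxidation, and the nuclear receptor PPAR-alpha, which binds DNA as a partner of RXR, drives the genes of peroxisomal and mitochondrial oxidation and of ketone formation there. The kidney also has its own circadian clock. Bmal1 pairs with Clock or Npas2 to activate genes through E-boxes, the Period and Cryptochrome proteins repress that pair, the nuclear receptors Nr1d1 and Nr1d2 repress Bmal1 through ROR elements, and Dbp, Tef and Nfil3 pass the rhythm on through D-boxes. Levels of clock genes depend on the hour of sampling, and the hour at which each rat was killed was not analysed here.

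A small part of the features differed between TBA and vehicle rats under isoflurane. Among named genes the circadian activator Bmal1 showed the highest rise, at 3.79-fold. The claudin Cldn22, the telomere protein Ten1 and the peroxisomal thiolase Acaa1b also rose at least 2-fold. The lipase Abhd16a, the kinase Sik1 and the coactivator Ppargc1a fell. Of 30289 features tested, 151 (0.499%) passed a Benjamini-Hochberg adjusted p of 0.05 in limma, 93 higher (0.307%) and 58 lower (0.191%) in TBA rats. The median change was 0.51 for the features that rose and -0.52 for those that fell. Changes were small: 20 features changed at least 2-fold, 13 up and 7 down. Gene symbols were available for 69 of the 151, of which 40 rose and 29 fell. All 151 had vehicle and TBA rats that did not overlap, against 24.7% of all features. A feature could enter the test through 1 group alone: 84 of the 93 and 52 of the 58 were well above background on all 6 arrays, and 144 features were called when only such features were tested.

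The count rested on the pooled spread of all 12 arrays, CO2-O2 rats included. Every SE and p printed with a gene rests on that pooled spread too. An SE can thus be wider or narrower than the isoflurane values beside it imply. The count was 0 when the slide was a random block, 0 when the 6 isoflurane arrays were fitted alone, and 83 after quantile normalization. With median scaling it was 500, and 83.4% of these were higher, against 61.6% of the 151. Leaving out 1 array gave 86, 0 and 1 features without vehicle isoflurane rat 1, 2 and 3, and 5, 1 and 1 without TBA isoflurane rat 1, 2 and 3. It gave 0, 26 and 33 without vehicle CO2-O2 rat 1, 2 and 3, and 32, 71 and 189 without TBA CO2-O2 rat 1, 2 and 3. Every one of the 69 named genes kept its direction in every alternative that tested it.

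Wsb1, a substrate adaptor of a ubiquitin ligase, had the lowest adjusted p. Its level was 3.33, 3.02 and 3.09 in the vehicle rats and 4.16, 4.32 and 4.29 in the TBA rats, a 2.16-fold rise (1.11 ± 0.10 log2, SE, n = 3 rats per group; limma adjusted p = 0.0224). All TBA rats stood above all vehicle rats by more than the spread within either group.

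Cldn22 and Cldn24 encode tight-junction claudins and are neighbours in the genome. Cldn22 lay at -3.41, -4.03 and -4.45 in the vehicle rats and at -2.20, -2.74 and -2.55 in the TBA rats, a 2.76-fold rise (1.47 ± 0.23; limma adjusted p = 0.04). Cldn24 lay at -3.19, -3.44 and -4.38 against -1.93, -2.47 and -2.39, and its difference of 1.41 ± 0.27 missed the threshold (limma adjusted p = 0.0601). In both genes the vehicle and TBA rats were apart. Of 15 claudins tested 1 rose, against 0.307% of all features called higher. The median difference of the family was 0.14, which became 0.03 without TBA rat 3 and 0.25 without TBA rat 1. Cldn1, a claudin of parietal and tubular epithelium, was at -0.62, -1.33 and -1.05 against -0.16, -0.15 and 0.03 (0.90 ± 0.17; limma adjusted p = 0.0518), and Cldn5, the endothelial claudin, at 0.56, 0.62 and 0.51 against -0.08, 0.04 and 0.25 (-0.50 ± 0.13; limma adjusted p = 0.0925).

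Ten1, a subunit of the telomere-capping CST complex, was at -1.62, -1.53 and -1.27 in vehicle rats and at 0.09, -0.54 and -0.14 in TBA rats. The rise was 2.43-fold (1.28 ± 0.16; limma adjusted p = 0.0311), and the groups were apart by more than the range within each. Ndrg1, a stress-responsive gene also induced by low oxygen, went from 5.30, 5.36 and 5.52 to 6.60, 6.25 and 6.26, a 1.97-fold rise (0.98 ± 0.15; limma adjusted p = 0.039). With Wsb1 it was 1 of 2 called genes among 20 hypoxia-response genes tested, against 0.307% of all features called higher. The median difference of the 20 was 0.06, and 0.05 to 0.11 when 1 isoflurane rat was left out. Vegfa and Ldha, other targets of the hypoxia-inducible factors, differed by 0.14 and 0.33 and did not pass the test.

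Car5b encodes a mitochondrial carbonic anhydrase, Hivep3 a zinc-finger DNA-binding protein and Zdhhc18 a palmitoyltransferase. Car5b lay at 1.42, 1.30 and 1.26 in vehicle rats and at 2.37, 2.25 and 2.27 in TBA rats (0.97 ± 0.17; limma adjusted p = 0.0472). Hivep3 lay at 5.86, 5.74 and 5.73 against 6.42, 6.53 and 6.63 (0.75 ± 0.08; limma adjusted p = 0.0311), although other probes of the gene differed by as little as 0.18. Zdhhc18 lay at 5.67, 5.72 and 5.78 against 6.44, 6.37 and 6.28 (0.64 ± 0.08; limma adjusted p = 0.0311), with probes from 0.12 to 0.64. The vehicle rats of each gene sat within a narrow band, and the TBA rats lay wholly above it. The glutathione peroxidase family member Gpx6 rose by 0.81 ± 0.11. The transcriptional repressor Hes3 entered the test through the TBA rats alone, with 2 of 3 vehicle arrays well above background, and lay at -5.38, -5.68 and -5.51 in vehicle rats and -4.41, -4.42 and -4.31 in TBA rats. Psapl1 (0.65 ± 0.07), Tmem171 (0.64 ± 0.11) and Tcf15 (0.63), a mesodermal helix-loop-helix factor, also rose. Tcf15 was 1 of 4 called genes whose probes disagreed in sign, together with Cym, Notch3 and Rpl31.

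**Figure D1:**
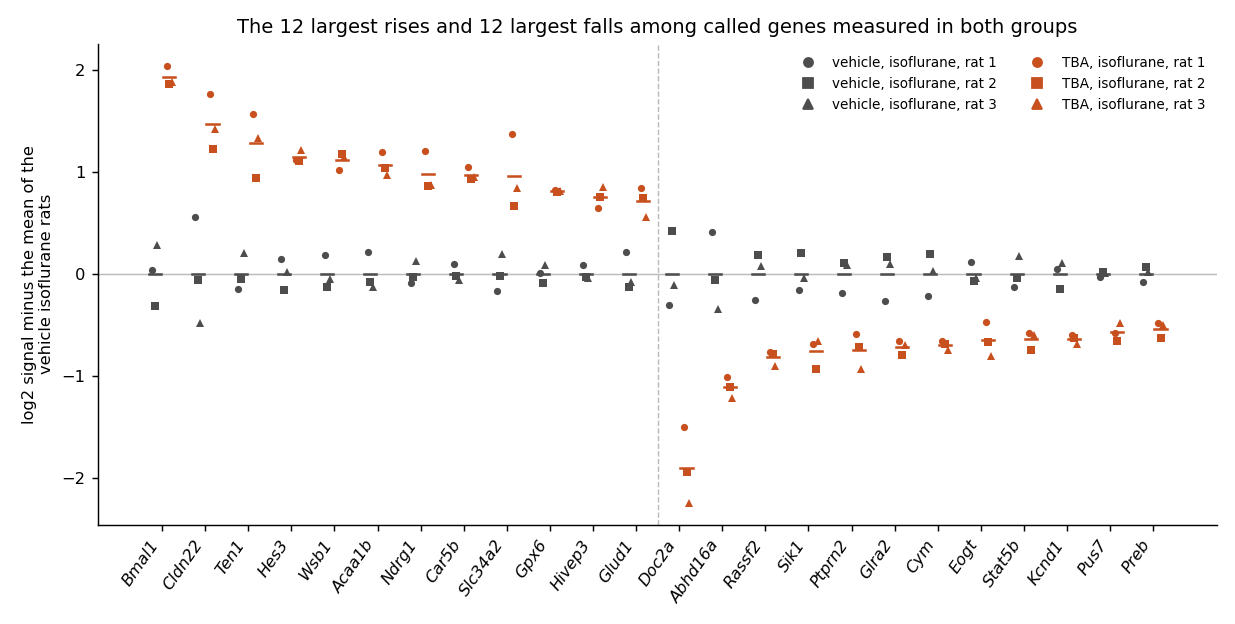
Level of 12 genes that rose and 12 that fell, in each rat, as log2 signal minus the mean of the vehicle isoflurane rats. Colours separate the groups, marker shapes the rats, and dashes mark group means. Nmbr and Rd3l, dim in every TBA rat, are left out; Hes3, Doc2a and Kcnd1 were well above background on all arrays of 1 group alone. Within each gene no TBA rat overlaps a vehicle rat.

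The lowest values among falls came from dim probes that entered the test through the vehicle rats alone, so that they are given as a description. Doc2a, a calcium sensor of vesicle release, was at -3.48, -2.76 and -3.28 in vehicle rats and at -4.68, -5.12 and -5.42 in TBA rats, with 1 of 3 TBA arrays well above background. Nmbr, the neuromedin B receptor, was well above background in the vehicle rats and not well above background in any TBA rat. Against a floor for the TBA arrays it was 2.61-fold lower, and Rd3l was likewise 2.08-fold lower. The floor was the lowest well-above-background signal of any probe on each TBA array, or the probe's own signal where that was higher. A probe's own detection limit can lie above this floor, so these folds are no strict lower bounds.

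Abhd16a, a phosphatidylserine lipase, showed the largest fall among named genes measured well above background in all 6 rats. Its level was 5.26, 4.79 and 4.50 in vehicle rats and 3.84, 3.74 and 3.63 in TBA rats, a 2.17-fold fall (-1.12 ± 0.16; limma adjusted p = 0.0334). The vehicle rats were more spread than the TBA rats, without overlap. Rassf2, a Ras-association domain protein, went from 0.90, 1.34 and 1.23 to 0.39, 0.37 and 0.25 (-0.82 ± 0.10; limma adjusted p = 0.0311). Sik1, the salt-inducible kinase that restrains CREB coactivators, went from -1.01, -0.65 and -0.89 to -1.54, -1.78 and -1.51 (-0.76 ± 0.12; limma adjusted p = 0.0337). Sik1 was the 1 called gene among 25 immediate early and CREB-linked genes tested, against 0.191% of all features called lower. Fos in that list lay at -4.54, -4.41 and -4.26 against -3.65, -3.46 and -3.56 (0.84 ± 0.19; limma adjusted p = 0.0739), the opposite direction to Sik1.

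Among other genes that fell, Ptprn2, a phosphatase-like protein of secretory vesicles, was at 3.61, 3.90 and 3.88 against 3.21, 3.08 and 2.86 (-0.75 ± 0.11; limma adjusted p = 0.0334). Its probes ranged from -0.75 to -0.06. The glycine receptor subunit Glra2 was at 2.47, 2.90 and 2.83 against 2.07, 1.94 and 2.03 (-0.72 ± 0.12; limma adjusted p = 0.0446). In both genes the highest TBA rat stayed below the lowest vehicle rat.

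Stat5b, which carries growth hormone signals to the nucleus, was at -2.48, -2.39 and -2.17 in vehicle rats and at -2.93, -3.09 and -2.95 in TBA rats (-0.64 ± 0.10; limma adjusted p = 0.0334). It was the 1 called gene of 13 in the growth hormone and IGF axis, against 0.191% of all features called lower. The growth hormone receptor Ghr differed by 0.29 (limma adjusted p = 0.0757), the growth factor Igf1 by -0.13 (limma adjusted p = 0.637), and the median of the axis was 0.01, or -0.06 to 0.05 when 1 isoflurane rat was left out. Ppargc1a, the coactivator PGC-1alpha of mitochondrial and fasting genes, was at -0.34, -0.28 and -0.28 against -0.62, -0.85 and -0.76 (-0.44 ± 0.07; limma adjusted p = 0.0406). Vehicle rats were tightly grouped for Ppargc1a, and each TBA rat was lower. Smaller falls came in Pus7, a pseudouridine synthase (-0.57 ± 0.08), Preb, which starts vesicle budding from the endoplasmic reticulum (-0.54 ± 0.09), Ramp2, the partner of the adrenomedullin receptor (-0.51 ± 0.07), and Eogt, a glycosyltransferase of the endoplasmic reticulum (-0.65 ± 0.11).

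Clock activators lay mostly higher, and repressors and output factors mostly lower, in TBA rats, but few passed the test. Of 21 tested, Bmal1 rose and Tspan4 fell, against 0.307% and 0.191% of all features called higher and lower. Tspan4 encodes a tetraspanin of migrasomes and is no core clock factor. The TBA rats lay wholly above the vehicle rats for 4 of the 21 and wholly below for 12, against 14.5% and 10.2% of all features. The median difference of the list was -0.41, and -0.26 without TBA rat 2.

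The activators were led by Bmal1, at -2.68, -3.03 and -2.44 in vehicle rats and -0.68, -0.86 and -0.84 in TBA rats, a 3.79-fold rise (1.92 ± 0.30; limma adjusted p = 0.0351). The TBA rats were close together and far above the vehicle rats, and the second probe of the gene gave 1.37. Its partner Npas2 lay at -1.73, -2.34 and -1.63 against -1.03, -1.0 and -1.0 (0.89 ± 0.20; limma adjusted p = 0.0742), with probes from 0.16 to 0.89. Clock, the alternative partner, differed by 0.32 ± 0.11 (limma adjusted p = 0.153) and Bmal2 by -0.08.

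Of 11 repressors, 10 had a difference below 0 and none passed the test. In TBA rats 7 were wholly lower and 1 wholly higher, against 10.2% and 14.5% of all features. Cry1 was at -0.62, 0.04 and -0.56 in vehicle rats and at -1.34, -1.25 and -1.20 in TBA rats (-0.88 ± 0.21; limma adjusted p = 0.0775). Cry2 was at -2.13, -2.0 and -2.12 against -2.38, -2.56 and -2.55 (-0.41 ± 0.08; limma adjusted p = 0.0641). Per2 was at 1.27, 1.63 and 1.30 against 0.92, 0.88 and 0.98 (-0.48 ± 0.15; limma adjusted p = 0.144). For these 3 the groups did not overlap. Ciart, a repressor of the Bmal1 pair, was at -0.63, -0.70 and -0.58 against -2.41, -2.66 and -1.41 (-1.52 ± 0.59; limma adjusted p = 0.211), its TBA rats apart from the vehicle rats but spread among themselves. Per1 overlapped, at -1.01, -1.42 and -0.82 against -1.30, -2.63 and -1.21 (-0.63 ± 0.53; limma adjusted p = 0.566). The Bmal1 repressors Nr1d1 and Nr1d2 differed by -0.08 ± 0.35 and -0.55 ± 0.19 (limma adjusted p = 0.937 and 0.163).

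Of 6 output factors, 5 had a difference below 0. The D-box activator Dbp was at 6.49, 6.58 and 6.47 in vehicle rats and at 5.75, 5.99 and 5.95 in TBA rats (-0.62 ± 0.36; limma adjusted p = 0.39). The SE pools in the CO2-O2 rats and is wide beside these isoflurane values. Tef, a relative of Dbp, was at 3.94, 4.23 and 4.13 against 3.65, 3.49 and 3.81 (-0.45 ± 0.14; limma adjusted p = 0.142). The deubiquitinase Usp2 was at 3.32, 3.71 and 3.69 against 3.12, 2.64 and 3.17, and the cell-cycle kinase Wee1 at 1.54, 1.80 and 1.74 against 1.14, 1.29 and 1.28 (-0.46 ± 0.11; limma adjusted p = 0.0866). None of these 4 overlapped between groups, where 10.2% of all features were wholly lower, and none passed the test. Nfil3, the D-box repressor, differed by 0.31. Tspan4 went from 1.77, 1.93 and 1.82 to 1.25, 1.36 and 1.32 (-0.53 ± 0.09; limma adjusted p = 0.0426).

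**Figure D2:**
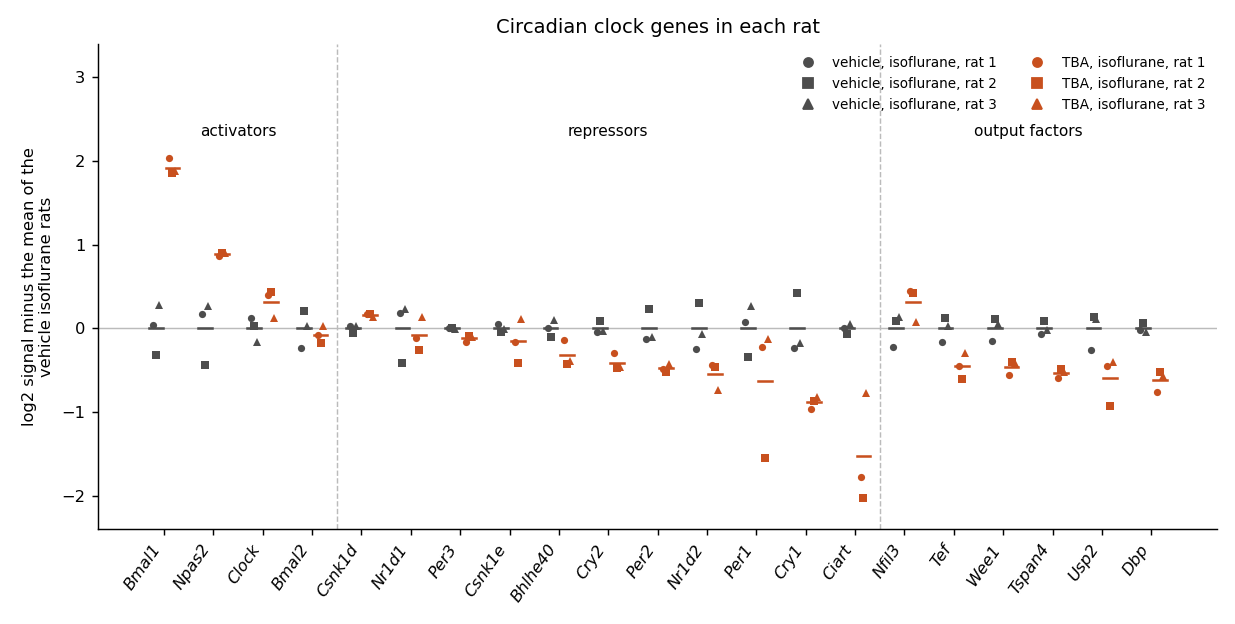
Circadian clock genes in each isoflurane rat, as log2 signal minus the mean of the vehicle isoflurane rats, split by dashed lines into activators, repressors and output factors and ordered by difference within each; dashes are group means. Bmal1 stands highest at 1.92, and 10 of 11 repressors have a mean difference below 0.

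Exact matches to an E-box, a D-box and the core of the ROR element were sought near the starts of these genes. The stretches below are the 250 bases before the transcription start in RefSeq on the build GRCr8. They are printed for the member that rose and for 3 of the other members whose windows held a clock motif. Bhlhe40 and Nr1d1 also held one and are not printed. Capitals mark the matched letters.
Bmal1: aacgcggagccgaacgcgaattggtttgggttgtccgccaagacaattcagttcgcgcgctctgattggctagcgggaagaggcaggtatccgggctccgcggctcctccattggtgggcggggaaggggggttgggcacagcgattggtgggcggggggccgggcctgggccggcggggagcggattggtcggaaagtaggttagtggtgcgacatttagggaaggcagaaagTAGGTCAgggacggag
Ciart: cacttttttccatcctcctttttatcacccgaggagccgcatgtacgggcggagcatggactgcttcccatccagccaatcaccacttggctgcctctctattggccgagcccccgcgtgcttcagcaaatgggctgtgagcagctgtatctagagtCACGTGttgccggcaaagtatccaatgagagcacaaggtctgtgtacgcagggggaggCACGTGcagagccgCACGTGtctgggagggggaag
Tef: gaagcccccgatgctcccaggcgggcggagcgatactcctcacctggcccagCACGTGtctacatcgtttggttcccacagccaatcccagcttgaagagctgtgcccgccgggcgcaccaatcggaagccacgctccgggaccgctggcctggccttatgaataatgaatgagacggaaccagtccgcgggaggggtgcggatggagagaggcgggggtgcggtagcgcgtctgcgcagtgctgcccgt
Per2: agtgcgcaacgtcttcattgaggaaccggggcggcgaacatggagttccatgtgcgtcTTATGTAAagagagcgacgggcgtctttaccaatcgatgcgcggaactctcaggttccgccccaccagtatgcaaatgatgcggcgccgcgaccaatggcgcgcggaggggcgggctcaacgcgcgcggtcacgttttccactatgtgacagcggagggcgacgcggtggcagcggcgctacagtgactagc
Bmal1 lies at chr1:176766078-176766327 on the plus strand, Ciart at chr2:186112247-186112496 on the minus strand, Tef at chr7:115206577-115206826 on the plus strand and Per2 at chr9:99496994-99497243 on the minus strand. Windows of 250 bases before to 50 after the start were searched on both strands. The core of the ROR element, TAGGTCA, the sequence bound by Nr1d1 and Nr1d2, was in 2.63% of 33469 windows and, among 17 clock members with a window, in Bmal1 alone, beginning at base -16. The E-box CACGTG was in 6.42% of windows and in 4 of the 17 members, Bhlhe40, Ciart, Nr1d1 and Tef. Ciart held 3, beginning at -93, -35 and -21, and Tef held 1, at -198. The D-box TTANGTAA was in 2.24% of windows and in Per2 alone, as TTATGTAA at -192. These matches describe sequence and no binding was measured. Only these exact letters were searched, so other forms of the elements would be left unmarked.

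PPAR-alpha targets lay mostly higher in TBA rats in each role, with 1 gene past the threshold, against 0.307% of all features called higher. Of 46 tested, 41 had a difference above 0, against 53% of all features, and 19 were wholly higher in TBA rats while none was wholly lower, against 14.5% and 10.2% of all features. The median difference was 0.30, and 0.21 after quantile normalization. Of the 46 genes 23 were among the brightest 10% of features, whose own median was 0.12 and lower quartile 0.03. The summed level of the 13 convoluted proximal tubule markers, each array's 75th percentile counting as 1, was 1040 to 1140 in vehicle rats and 1250 to 1360 in TBA rats. The median difference of these 13 was 0.24, and 0.02 after quantile normalization. The part of the summed level in the result was not tested.

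The 1 called target was Acaa1b, the peroxisomal 3-ketoacyl-CoA thiolase that ends each round of peroxisomal beta-oxidation. It was at 6.63, 6.34 and 6.29 in vehicle rats and at 7.61, 7.46 and 7.39 in TBA rats, a 2.09-fold rise (1.06 ± 0.13; limma adjusted p = 0.0311), with its 3 probes from 0.74 to 1.06. No TBA rat came near the vehicle range. Of 11 peroxisomal genes tested, 10 were above 0 and 7 were among the brightest 10% of features. The median of the 11 was 0.30 and became 0.18 after quantile normalization. Ehhadh, the bifunctional enzyme before the thiolase, was at 3.28, 2.69 and 2.41 against 3.31, 3.65 and 3.49 (0.69 ± 0.19; limma adjusted p = 0.111).

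The 5 tested genes of ketone formation and fuel choice had a median of 1.07 and none was called. That median became 0.46 without vehicle rat 3, the rat in which the thioesterase gene Acot1 was at -7.19 and not well above background. Pdk4, which shuts off pyruvate oxidation, was at -2.98, -3.72 and -4.21 against -3.13, -2.04 and -2.54 (1.07 ± 0.39; limma adjusted p = 0.188), and 1 TBA rat fell inside the vehicle range. The mitochondrial thioesterase Acot2 differed by 0.54 ± 0.12 (limma adjusted p = 0.0739) and the inner-membrane carrier Ucp2 by -0.01. Vehicle rat 1 was the highest of its group for Pdk4.

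All 13 mitochondrial beta-oxidation genes tested had a difference above 0, 5 of them without overlap, at a median of 0.20 that became 0.08 after quantile normalization and 0.32 without TBA rat 2. Eci1, an enoyl-CoA isomerase, was at 6.30, 5.70 and 5.62 against 6.54, 6.81 and 6.61 (0.78 ± 0.17; limma adjusted p = 0.0692). The reductase Decr1 differed by 0.50 ± 0.13 (limma adjusted p = 0.0927), whereas the carnitine transferase Cpt1a, the entry step, differed by 0.05 (limma adjusted p = 0.937). Among 12 genes of lipid storage, transport and signalling, 9 were above 0, at a median of 0.37. Of these 12, 7 were wholly higher in TBA rats, against 14.5% of all features. Vnn1, a pantetheinase of the apical membrane, was at 4.15, 3.52 and 3.50 against 4.46, 4.87 and 5.08 (1.08 ± 0.21; limma adjusted p = 0.0608). The droplet protein Plin2 was at 4.17, 3.73 and 3.83 against 4.53, 4.62 and 4.35 (0.59 ± 0.11; limma adjusted p = 0.0601), and Angptl4, the lipoprotein lipase inhibitor, differed by 0.74 ± 0.27 (limma adjusted p = 0.193). The 5 omega-oxidation genes were all above 0, with Cyp4a1, the fatty acid omega-hydroxylase, at 0.61 ± 0.23. Their median of 0.29 became 0.07 after quantile normalization. The 5 targets below 0 were Decr2, Ucp2, Fabp3, Cidea and Fabp1, and Fabp1 had the lowest value, at -0.82 ± 0.74. By rat, the median of the 46 targets relative to the vehicle mean was 0.19, -0.09 and -0.11 in vehicle rats and 0.36, 0.29 and 0.32 in TBA rats.

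**Figure D3:**
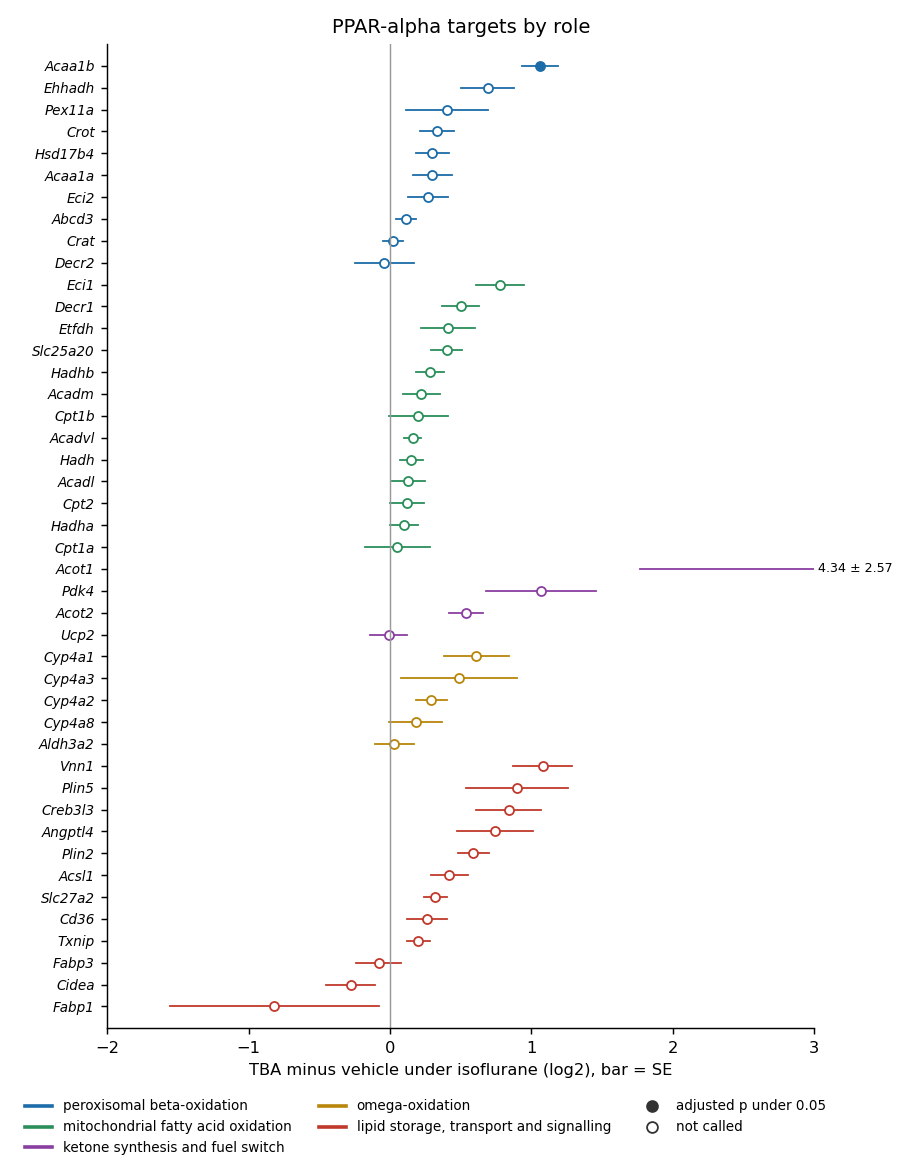
TBA minus vehicle difference under isoflurane (log2) of 44 of the 46 PPAR-alpha targets, coloured by role, with the SE from limma as a bar. The filled point, Acaa1b, is the 1 called gene; Acot1 lies beyond the axis at 4.34 ± 2.57, with vehicle rat 3 at -7.19.

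Outside that list, Ech1, Acad11 and Gcdh rose. Ech1, an auxiliary enoyl-CoA isomerase, was at 4.79, 4.55 and 4.48 against 5.07, 5.11 and 5.13 (0.49 ± 0.09; limma adjusted p = 0.0475). The acyl-CoA dehydrogenase Acad11 rose by 0.38 ± 0.06 (limma adjusted p = 0.0421) and Gcdh, the glutaryl-CoA dehydrogenase of lysine breakdown, by 0.42 ± 0.07 (limma adjusted p = 0.0406). These were chosen for naming after their values were seen. In every one, TBA and vehicle rats were apart.

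Glud1, the mitochondrial glutamate dehydrogenase that releases ammonia in the proximal tubule, was at 6.27, 5.93 and 5.98 in vehicle rats and at 6.90, 6.80 and 6.62 in TBA rats (0.71 ± 0.10; limma adjusted p = 0.0334). Its probes ranged from 0.53 to 0.73. It was 1 of 2 called genes among 23 of ammoniagenesis and gluconeogenesis, against 0.307% of all features called higher. Of the 23, 15 were above 0, against 53% of all features. Among the brightest 10% of features, with a lower quartile of 0.03, were 14 of the 23. Pck1, the gateway enzyme of gluconeogenesis, was at 7.78, 7.76 and 7.60 against 7.83, 7.88 and 8.0 (0.19 ± 0.08; limma adjusted p = 0.244). The median of the list was 0.13, and 0.02 after quantile normalization. The lactate transporter Slc5a12 of the early proximal tubule was at 1.79, 1.28 and 1.54 against 1.97, 2.25 and 2.04 (0.55 ± 0.12; limma adjusted p = 0.0692).

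Many of the rises belonged to genes with the brightest probes, and the size of these rises differed between normalizations. When features were ordered by mean signal and divided into 10 equal sets, the brightest set had a median difference of 0.12 and held 40 of the 93 features that rose and 1 of the 58 that fell. The other sets had medians between -0.04 and 0.04. The brightest set had a median of 0.11 with normexp background correction and 0.16 with median scaling. After quantile normalization its median was 0.00. That method gives all arrays the same distribution of values, so a median near 0 was fixed in advance. The iron-storage light chain Ftl1 was at 8.84, 8.92 and 8.86 in vehicle rats and 9.35, 9.18 and 9.20 in TBA rats (0.37 ± 0.06; limma adjusted p = 0.0406), and its difference was 0.15 after quantile normalization. The metal-binding Mt2A was at 8.14, 8.22 and 8.15 against 8.57, 8.45 and 8.56 (0.36 ± 0.06; limma adjusted p = 0.0406), and 0.16 after quantile normalization. The lipid peroxide reductase Gpx4 behaved alike, at 0.31 ± 0.06 (limma adjusted p = 0.0498) and 0.09. For all 3 the vehicle and TBA rats did not overlap.

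Oxidative phosphorylation genes were nearly all in this bright range, 30 of 32 tested. None passed the test, 29 were above 0, and the median of 0.11 became -0.04 after quantile normalization and 0.06 without TBA rat 1. Cox4i1, a subunit of cytochrome oxidase, was nearest the threshold, at 7.57, 7.63 and 7.59 against 7.91, 7.94 and 7.81 (0.29 ± 0.05; limma adjusted p = 0.0547), and 0.06 after quantile normalization. TBA rat 1 was the highest of the 6 rats for 25 of the 32. Aco1, which doubles as cytosolic aconitase and iron-regulatory protein, rose by 0.60 ± 0.11 (limma adjusted p = 0.0494), and Gabarapl1, an autophagosome protein, by 0.46 ± 0.07 (limma adjusted p = 0.0334).

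**Figure D4:**
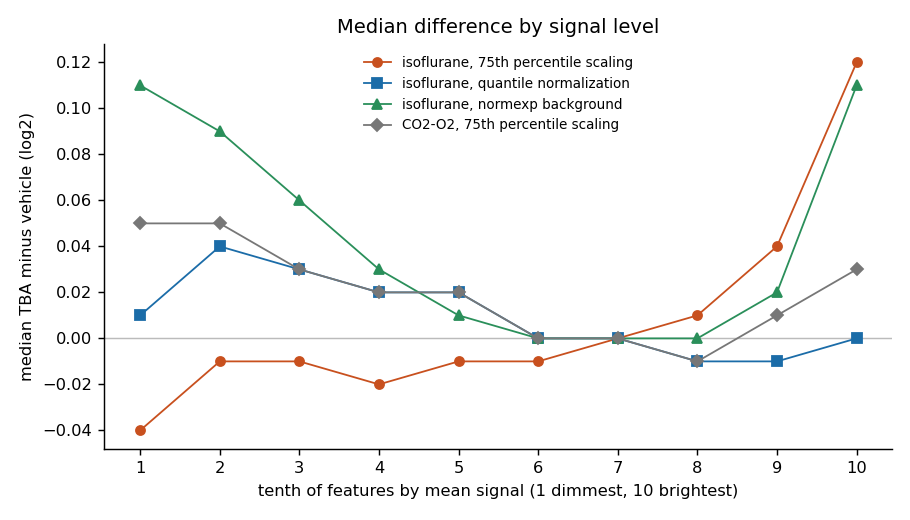
Median TBA minus vehicle difference (log2) in 10 equal sets of the 30289 features ordered by mean signal. The isoflurane comparison is drawn under 3 settings and the CO2-O2 comparison under 1. In the brightest set the isoflurane median was 0.12 with 75th percentile scaling, 0.11 with normexp background correction and 0.00 with quantile normalization.

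The alpha-2u-globulins are lipid-carrying urinary proteins of male rats, made in the liver and taken up by the proximal tubule. They are near-identical copies, so a probe may read several of them. All 3 tested members had differences below 0 with overlapping groups and none passed the test. Obp3 was at 1.16, 2.40 and 0.04 in vehicle rats and 0.49, -2.10 and -0.86 in TBA rats (-2.02 ± 0.90; limma adjusted p = 0.265). Mup5 was at 0.07, 1.30 and -1.22 against -0.49, -3.05 and -1.91 (-1.86 ± 0.92; limma adjusted p = 0.315). For all 3 members vehicle rat 2 was the highest of the 6 rats and TBA rat 2 the lowest. Their median of -2.02 became -1.38 without TBA rat 2 and -1.42 without vehicle rat 2. Under CO2-O2 all 3 members were wholly lower in TBA rats, at a median of -2.78. Liver genes had a like spread over rats, and albumin (Alb) was at 1.67, 2.52 and 0.50 against 1.57, -1.84 and 0.47 (-1.50 ± 0.94; limma adjusted p = 0.429). Of 8 liver markers tested, 6 were below 0, 5 were highest in vehicle rat 2 and 6 were lowest in TBA rat 2. Their summed level was 7.2 to 14.8 in vehicle rats and 3.46 to 11.3 in TBA rats, and its part in the alpha-2u-globulin values was not tested.

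Interferon-response genes were highest in TBA rat 2. None of 23 tested passed the test, 21 had a difference above 0, and the median of 0.48 became 0.05 without that rat. TBA rat 2 was the highest of the 6 rats for 20 of the 23. The same rat was the highest for 8 of 10 macrophage markers, whose summed level was 81.2 to 115 in vehicle rats and 83.7 to 132 in TBA rats, and for 2 of 6 lymphocyte markers, at 1.67 to 2.04 and 1.73 to 2.33. Their part in the interferon values was not tested. The ubiquitin-like Isg15 was at 0.58, 0.78 and 0.51 in vehicle rats and at 0.75, 2.42 and 1.00 in TBA rats (limma adjusted p = 0.389). The chemokine Cxcl10 was at -0.11, -0.51 and -0.73 against -0.13, 1.57 and -0.06 (limma adjusted p = 0.305). The antiviral GTPase Mx1 was at 1.65, 1.73 and 1.56 against 1.70, 2.95 and 1.85. In all 3, the remaining TBA rats lay inside or just above the vehicle range.

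**Figure D5:**
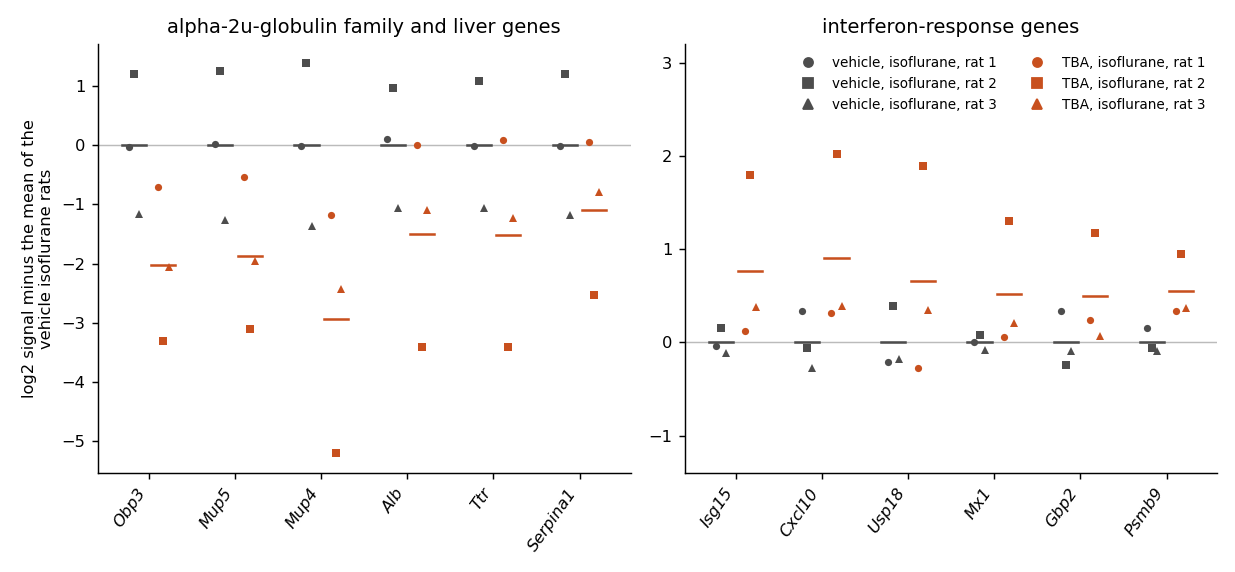
Alpha-2u-globulin family and liver genes (left) and interferon-response genes (right) in each isoflurane rat, as log2 signal minus the mean of the vehicle isoflurane rats, with dashes at group means. TBA rat 2 lies lowest for each of the plotted genes on the left and highest for each on the right.

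No tubular injury marker was called. Of 18 tested 11 were above 0, at a median of 0.11 that became 0.21 without TBA rat 1 and 0.03 without TBA rat 3 or vehicle rat 2, and 0.06 without TBA rat 2 or vehicle rat 3. Havcr1, which encodes the injury molecule KIM-1, differed by -0.12 ± 0.52 (limma adjusted p = 0.932) and clusterin (Clu) by 0.31 ± 0.26 (limma adjusted p = 0.56). Osteopontin (Spp1) was at 3.16, 3.36 and 2.01 in vehicle rats and at 3.30, 4.05 and 4.35 in TBA rats (1.06 ± 0.42; limma adjusted p = 0.221). Lipocalin Lcn2 was at -2.11, -1.82 and -1.62 against -2.42, -1.61 and -5.22 (-1.24 ± 1.03; limma adjusted p = 0.563), so TBA rat 3 alone was low. Both injury genes overlapped between groups.

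Of 22 NRF2 targets none passed the test. Heme oxygenase Hmox1 was at -1.47, -1.75 and -1.37 against 2.14, -1.10 and -1.48 (1.38 ± 0.78; limma adjusted p = 0.376), high in TBA rat 1 alone. Gpx2 was at 3.24, 3.90 and 2.27 against 5.32, 3.81 and 5.65 (1.79 ± 0.60; limma adjusted p = 0.159), and TBA rat 2 lay inside the vehicle range. Heat shock proteins were above 0 for 16 of 17 tested, 10 of them without overlap, against 53% and 14.5% of all features. Their median was 0.17, and none was called. Of the 17, 9 were among the brightest 10% of features, whose own median was 0.12 and lower quartile 0.03. Hsp90aa1, the inducible chaperone, was at 5.63, 5.45 and 5.75 against 6.27, 6.31 and 5.91 (0.55 ± 0.15; limma adjusted p = 0.0977), and its regulator Hsf1 differed by -0.13.

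Enzymes that conjugate or oxidize foreign compounds were mostly above 0 without a call. Of 26 conjugating enzymes 22 were above 0, against 53% of all features. Among the brightest 10% of features, with a lower quartile of 0.03, were 11 of the 26. TBA rats were wholly higher for 9 and wholly lower for 2, against 14.5% and 10.2% of all features. The median was 0.25, and 0.38 without TBA rat 2. The glutathione transferase Gsta2 was at 7.67, 7.42 and 7.84 against 8.41, 8.10 and 8.13 (0.57 ± 0.13; limma adjusted p = 0.0757), and the sulfotransferase Sult1c3 at -1.57, -1.54 and -0.63 against -0.40, 0.26 and 0.40 (1.33 ± 0.47; limma adjusted p = 0.173). Both were without overlap. Of 14 genes of alcohol and aldehyde oxidation 12 were above 0, but their median of 0.12 became 0.03 after quantile normalization, and Aldh2, the mitochondrial aldehyde dehydrogenase, differed by 0.21. Cyp2e1, an ethanol-oxidizing cytochrome, differed by 0.54 ± 0.18 (limma adjusted p = 0.152). Of 11 cytochromes P450 of families 1 to 3, 9 were above 0. Their differences ran from -1.95 to 0.54, at a median of 0.08.

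Cell-cycle genes were balanced between directions. Of 21 tested 10 were above 0, at a median of -0.02, or -0.01 to 0.14 when 1 isoflurane rat was left out, and none was called. Cyclin D1 (Ccnd1) was at 4.08, 4.61 and 4.17 in vehicle rats and at 3.32, 3.74 and 3.23 in TBA rats (-0.85 ± 0.26; limma adjusted p = 0.127), without overlap. The ribonucleotide reductase subunit Rrm1 was at -1.26, -1.15 and -1.22 against -1.65, -1.44 and -1.68 (-0.38 ± 0.08; limma adjusted p = 0.0671), while the mitotic kinase Cdk1 overlapped, at 0.59, 0.23 and 1.14 against 1.26, 1.47 and 0.63. Among 32 genes of cholesterol and fatty acid synthesis the median was -0.05, or -0.08 to 0.01 when 1 isoflurane rat was left out. The last enzyme of cholesterol synthesis, Dhcr7, was at 1.17, 1.38 and 1.53 against 2.48, 1.84 and 1.99 (0.75 ± 0.16; limma adjusted p = 0.0666).

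The same features were read in the 6 rats killed under CO2-O2, where 46 (0.152%) passed the test. In this arm the 3 vehicle arrays and that of TBA rat 3 shared a slide scanned on the first day. TBA rats 1 and 2 lay on the slide of the vehicle isoflurane arrays, scanned on the second day. Slide and scan day thus partly followed treatment. Vehicle arrays of the different arms differed in slide and scan day, so these and the anesthetic cannot be told apart. The arms share no samples, but they share the fitted spread. Of the 93 features that rose under isoflurane, 76 had a difference above 0 under CO2-O2, against 53.9% of all features, and 9 were also called. Of the 58 that fell, 31 were below 0 under CO2-O2 and 1 was also called. Their median difference under CO2-O2 was -0.02. There, 19 of the 58 were wholly lower and 13 wholly higher in TBA rats, against 21.1% of all features apart in either direction. Wsb1 (0.88 ± 0.10), Cldn22 (2.25), Hivep3 (0.66), Tcf15 (1.07) and Spag7 (0.74) were among the rises called in both arms. Bmal1 differed by 1.16 under CO2-O2 (limma adjusted p = 0.149), with vehicle rats at -0.54, -0.53 and 0.22 and TBA rats at 1.51, 0.82 and 0.32. Every vehicle rat killed under CO2-O2 had a higher Bmal1 level than any vehicle rat killed under isoflurane. Acaa1b, Ndrg1 and Glud1 differed by 0.65, 0.79 and 0.55.

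The difference between the arms was tested as an interaction, in the main fit without a term for slide or scan day. None of the 30289 features passed in limma, where 3824 (12.6%) had an unadjusted p under 0.05 and the lowest adjusted p was 0.0661. That lowest value was for Abhd16a, with vehicle rats at 3.81, 3.62 and 3.80 and TBA rats at 4.66, 4.57 and 4.72 under CO2-O2, the opposite direction to isoflurane. Ten1 and the phosphate cotransporter Slc34a2, which rose under isoflurane, were lower in every TBA rat under CO2-O2. Slc34a2 was at -4.88, -4.73 and -4.52 against -3.34, -4.05 and -3.87 under isoflurane (0.96 ± 0.17; limma adjusted p = 0.0494), and at -2.82, -2.98 and -2.90 against -3.56, -3.29 and -3.62 under CO2-O2. Ppargc1a was at -0.68, -0.83 and -0.67 in vehicle rats and at -0.45, -0.40 and -0.44 in TBA rats under CO2-O2. For Abhd16a, Slc34a2 and Ppargc1a the TBA rats under isoflurane lay nearer to the vehicle rats under CO2-O2 than the vehicle rats under isoflurane did. The same held for 34 of the 58 features that fell, 26 of the 93 that rose and 14825 of all 30289 (48.9%).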

How the data were processed

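Per the submitters' processing notes and the file headers, the authors scanned one-colour Cy3 arrays with Agilent Feature Extraction 10.7.1.1 and annotation build rn4; the deposited values used are its processed intensity, background-subtracted. A deposited table of the authors' values, a ratio to each array's 75th percentile, served as an alternative. Its columns matched scanner files of other replicate numbers in the same group. Signals became log2 values minus each array's 75th percentile. Control and outlier spots were left out. A probe was kept if all 3 arrays of an isoflurane group had it well above background (38512), with the brightest probe per symbol, giving 30289 features. Symbols came from RefSeq by accession: 27460 probes had 1, none had several, and 34197 had none. Group means on 12 arrays were fitted in limma 3.58.1 (R 4.3.3, statmod 1.5.0; 8 residual degrees of freedom) and adjusted by Benjamini-Hochberg at 0.05, after a check on simulated data. SE is limma's. The number of arrays limits precision. Named genes were the 15 highest rises and 15 largest falls among called genes without overlap, called list members, up to 3 extremes of each list and a preset group, of which some are given. Members and lists were chosen with earlier results of these data known. Results for some genes are not reported here.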

Additional observations from a re-analysis of the deposited data

Results flagged for a closer look

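Each of 6 genes lay on one side in every TBA rat under isoflurane and on the other side in every TBA rat under CO2-O2, relative to the vehicle rats. They were picked for this pattern, and its share over all features was not counted. Of all features, 24.7% were apart in either direction under isoflurane and 21.1% under CO2-O2. Among called features, 5 of the 93 that rose and 13 of the 58 that fell had the pattern. The difference between the effects, isoflurane minus CO2-O2, was -2.03 for Abhd16a, 1.70 for Ten1, 1.55 for Slc34a2, -0.74 for Ppargc1a, -0.47 for Bpnt2, which removes phosphate from sulfation by-products, and 0.41 for Lrp2, the endocytic receptor megalin. Each was tested as an interaction in limma, and none passed: the adjusted p was 0.0661 for Abhd16a, 0.108 for Ten1 and Ppargc1a, 0.163 for Slc34a2, 0.184 for Bpnt2 and 0.254 for Lrp2. Lrp2 was not called under isoflurane either, at 6.38, 6.23 and 6.14 in vehicle rats and 6.60, 6.48 and 6.44 in TBA rats.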

How the results depend on the processing

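The count of 151 called features became 1371 with normexp, 83 with quantile normalization, 500 with median scaling and 3 with no filter on dim probes. It was 732 with a trended robust spread, and 0 with the slide as a random block, with the replicate block (5328 at an unadjusted p under 0.05), with the 6 isoflurane arrays alone (4890) and, chosen after seeing the data, with the second scan day alone (5287). Restricting to features above the median signal, also chosen after seeing the data, gave 1011. Rises were 61.6% of calls and 83.4% with median scaling, which moved the median of all features from 0.01 to 0.05. Leaving out 1 array gave 0 to 189. Deviations of rats with the same number correlated at -0.13, -0.12 and 0.07, and not every rat correlated best with its own number. With 3 rats per group such values cannot exclude a pairing, and the main fit used none. The slide block had 4581 features at an unadjusted p under 0.05, and the 69 named called genes had adjusted p of 0.0557 to 0.1 in limma.

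The interaction count of 0 became 7 with normexp, 6 with symbol-bearing features alone, 2 with the trended robust spread and 6 above the median signal, and 0 to 7 when 1 array was left out. The 69 called genes kept their sign in every alternative. Sign changes came in genes that were not called: Cpt1a (-0.01 with normexp, -0.14 to 0.22 when 1 array was left out), Havcr1 (0.12 with normexp, -0.56 to 0.40 when 1 array was left out), Pck1 (-0.04 with quantile normalization) and, when 1 array was left out, Igf1 (-0.20 to 0.01), Nr1d1 (-0.28 to 0.04) and Umod (-0.32 to 0.00). The cause was not tested.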
